A study of Homo sapiens with 12 samples.

Results

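The locus described here is the stretch of human chromosome 9p21 that holds MTAP, CDKN2A and CDKN2B. Its members are the ATAC-seq peaks, of any height, whose midpoint lies within 50 kb of the RefSeq spans of these 3 genes on GRCh38, which gives a window of 307 kb (chr9:21752636-22059313). The 12 deposited peak lists held 467 such peaks among 4231443 peaks in all, and 46436 peaks on the rest of 9p. Within the window, MTAP spans chr9:21802636-21941115 (138 kb), CDKN2A spans chr9:21967752-21995324 (27.6 kb) and CDKN2B spans chr9:22002903-22009313 (6.41 kb).

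ATAC-seq maps open chromatin by letting a transposase insert sequencing adapters into accessible DNA. The libraries came from KYSE150 and KYSE510, established human lines of oesophageal squamous cell carcinoma, grown in RPMI-1640 with fetal bovine serum. In each line 3 libraries were of control cells and 3 of cells in which HCP5, a long non-coding RNA, was silenced. The labels give no silencing method and no origin of the 3 libraries of a group, so p-values measure only the spread between these libraries, which may be technical, and each line is 1 line.

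CDKN2A encodes 2 unrelated proteins from separate first exons. The downstream start gives p16INK4a, which inhibits the cyclin D kinases CDK4 and CDK6 and so keeps RB active, and the upstream start gives p14ARF, which restrains the ubiquitin ligase MDM2. CDKN2B encodes p15INK4b, a close relative of p16INK4a. MTAP encodes methylthioadenosine phosphorylase, the first enzyme of methionine salvage, and lies next to them. The locus is known for frequent homozygous loss in squamous carcinomas, with MTAP lost together with its neighbours or kept.

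The promoters of these genes are shown because the contrast between the lines runs through them. They are the 300 bases around a RefSeq start in GRCh38.p14, 5′ to 3′ on the gene's strand, and capitals mark GGGCGG or its reverse complement CCGCCC, the core of a GC box. At least 1 match is present in 44.9% of the 34789 RefSeq promoter windows. A match is a description of the letters and not a bound site.
MTAP, chr9:21802386-21802685, plus strand: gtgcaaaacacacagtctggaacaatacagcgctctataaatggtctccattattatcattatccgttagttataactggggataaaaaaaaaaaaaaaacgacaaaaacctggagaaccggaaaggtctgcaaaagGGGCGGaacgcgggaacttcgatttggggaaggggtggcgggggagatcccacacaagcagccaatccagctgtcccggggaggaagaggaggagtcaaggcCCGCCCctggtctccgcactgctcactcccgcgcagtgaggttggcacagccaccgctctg
CDKN2A downstream start, chr9:21974808-21975107, minus strand: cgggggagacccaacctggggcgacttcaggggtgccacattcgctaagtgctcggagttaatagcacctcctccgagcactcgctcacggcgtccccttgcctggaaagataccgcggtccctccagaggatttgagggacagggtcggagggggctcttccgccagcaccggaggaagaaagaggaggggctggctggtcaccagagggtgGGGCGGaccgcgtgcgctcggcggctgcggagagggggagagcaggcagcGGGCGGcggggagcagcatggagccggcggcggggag
CDKN2B-AS1, chr9:21994541-21994840, plus strand: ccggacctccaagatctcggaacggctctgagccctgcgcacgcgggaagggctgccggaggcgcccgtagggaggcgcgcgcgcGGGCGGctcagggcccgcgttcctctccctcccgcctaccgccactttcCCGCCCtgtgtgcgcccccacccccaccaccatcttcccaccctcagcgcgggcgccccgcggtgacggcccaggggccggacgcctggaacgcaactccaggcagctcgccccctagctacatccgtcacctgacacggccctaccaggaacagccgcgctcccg
CDKN2B, chr9:22009256-22009555, minus strand: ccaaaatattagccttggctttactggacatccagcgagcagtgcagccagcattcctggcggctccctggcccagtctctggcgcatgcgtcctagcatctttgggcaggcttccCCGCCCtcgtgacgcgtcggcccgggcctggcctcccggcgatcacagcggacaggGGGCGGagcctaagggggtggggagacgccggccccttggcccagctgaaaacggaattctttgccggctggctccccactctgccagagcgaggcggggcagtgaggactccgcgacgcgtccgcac
The 4 windows each held 2 matches. They held 15, 26, 36 and 25 CpG dinucleotides in the order printed, with a GC content of 53%, 69%, 74% and 67.3%. CDKN2B-AS1, an antisense non-coding RNA, starts within 1 kb of the upstream CDKN2A start at chr9:21995324, and 1 merged peak region (chr9:21993951-21995146) serves both here.

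The lists of the 2 lines differ in kind, and this touches every comparison between them. KYSE150 lists held 547125 to 630780 peaks and reached down to a Pileup of 1, the height of the read pileup at the summit of a peak, with 80.8% to 82.5% of peaks at that value. KYSE510 lists held 115868 to 135948 peaks, none below a Pileup of 2. The largest p-value was 0.00987 in all 12 lists. Sequencing depth is unknown, but the background implied by height and fold enrichment was 0.0826 to 0.108 Pileup units in KYSE150 and 0.180 to 0.217 in KYSE510. Of the squamous markers with a RefSeq promoter entry, KRT5 and DSG3 had a promoter peak in all 12 libraries. PKP1 had one in 6 KYSE150 and 1 KYSE510 libraries, SOX2 in 1 and 6, and TP63 at the start in the table in 3 and 0. Of the markers of other cell types with an entry, PTPRC had a peak at a Pileup of 1 in 2 KYSE150 libraries, and PDGFRB had a peak in 1 KYSE510 library. The lists do not measure HCP5 RNA, so silencing was not checked.

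KYSE510 had open chromatin over MTAP and none over CDKN2A and CDKN2B, whereas KYSE150 had peaks over all 3 genes. The window was divided at the end of MTAP into an MTAP side of 188 kb and a CDKN2 side of 118 kb, a division made after the data were seen. On the CDKN2 side KYSE150 had 23, 22 and 22 peaks in the control libraries and 20, 24 and 19 in the silenced libraries. KYSE510 had 1, 0 and 1 peaks in the control libraries and 0 in each silenced library. Both KYSE510 peaks had a Pileup of 3 and lay between MTAP and CDKN2A, at chr9:21964998-21965197 and chr9:21949229-21949428. At a Pileup of 3 or more the KYSE150 libraries still had 7 to 10 peaks there, so the gap between the lines was not limited to the lowest peaks. Peak lists carry no copy number and no reads outside peaks, so an interval without DNA and an interval of closed DNA cannot be told apart here.

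On the MTAP side KYSE150 had 34, 45 and 42 control peaks and 35, 46 and 39 silenced peaks. KYSE510 had 14, 16 and 14 control peaks and 11, 19 and 20 silenced peaks. At a Pileup of 3 or more the MTAP side held 7 to 12 peaks in the KYSE150 lists, against 10 to 19 for KYSE510. Once the lowest peaks were set aside, the ranges of the 2 lines over MTAP overlapped, with KYSE510 reaching higher.

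**Figure D1:**
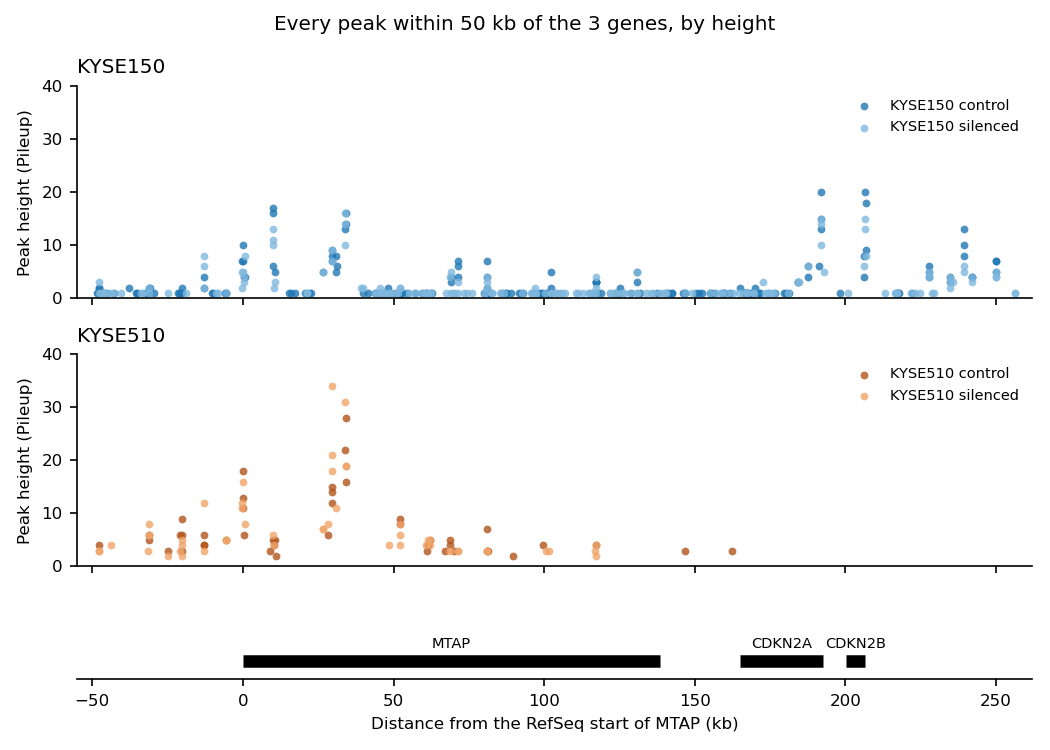
Height (Pileup) of every peak in the window against distance from the RefSeq start of MTAP in kb, for the 6 libraries of each line; bars mark the 3 gene spans. KYSE510 peaks end within MTAP apart from 2 peaks of Pileup 3 beyond it, while KYSE150 peaks run across the window.

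Relative density, the peaks per kb of a region divided by the peaks per kb on the rest of 9p (up to 43 Mb), sets each library against its own list. On the CDKN2 side it was 1.22, 1.22 and 1.22 in KYSE150 controls and 1.17, 1.21 and 1.11 after silencing. In KYSE510 it was 0.294, 0 and 0.338 in controls and 0 in all 3 silenced libraries. The lines did not overlap (1.19 ± 0.0434 in KYSE150 and 0.105 ± 0.164 in KYSE510, SD, n = 6 libraries each; KYSE510 minus KYSE150 -1.09), and no test is given because the sides were chosen with these values in view. On the MTAP side the order was the opposite, 1.39 ± 0.155 in KYSE150 and 2.97 ± 0.438 in KYSE510 (SD, n = 6), a difference of 1.58, and the lines did not overlap. This order held with all peaks and not at a Pileup of 3 or more, where the MTAP side stood at 3.33 ± 0.544 in KYSE150 and 3.13 ± 0.538 in KYSE510 and the lines overlapped. On the CDKN2 side the order held at that height, with 4.59 ± 0.596 and 0.118 ± 0.183 (SD, n = 6 in each case).

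Over the whole window the sign of the difference between the lines depends on the peaks that are counted. With all peaks, the window had 57, 67 and 64 control and 55, 70 and 58 silenced peaks in KYSE150, and 15, 16 and 15 control and 11, 19 and 20 silenced peaks in KYSE510. Relative density was then 1.31 ± 0.0968 in KYSE150 and 1.87 ± 0.256 in KYSE510 (SD, n = 6), higher in KYSE510 by 0.553 (two-sided exact permutation test, p = 0.00216, the smallest it can give). At a Pileup of 3 or more it was 3.81 ± 0.426 in KYSE150 and 1.97 ± 0.314 in KYSE510, a difference of -1.85 with the same p in the exact permutation test. The number of peaks in the whole window therefore does not describe the locus in KYSE510, and the position of the peaks does.

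**Figure D2:**
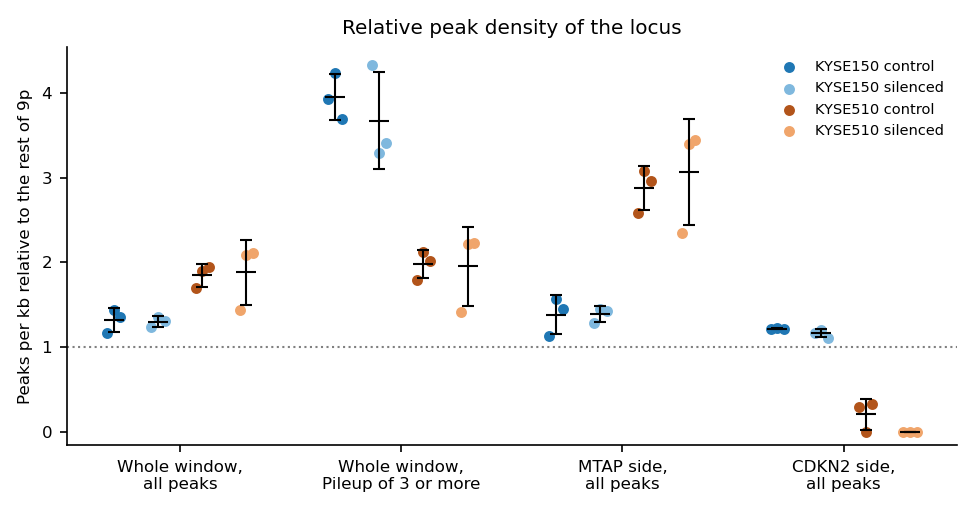
Peaks per kb relative to the rest of 9p, for the whole window with all peaks or with peaks of Pileup 3 or more, and for its 2 sides with all peaks; points are libraries, bars the mean and SD of 3, and the dotted line marks the density of the rest of 9p. KYSE510 lies below KYSE150 on the CDKN2 side, above it on the MTAP side, and changes place with it over the whole window.

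The empty part of the window opened onto a much longer one. No KYSE510 library had a peak of any height from chr9:21965198 to chr9:23207310, a stretch of 1242 kb that starts 24.1 kb after the end of MTAP and 2554 bp before the RefSeq span of CDKN2A. It runs 1148 kb beyond the window. It holds 13 RefSeq genes whole, of which CDKN2A, CDKN2B and DMRTA1, a doublesex-related transcription factor, code for proteins. The others are the non-coding genes CDKN2A-AS1, CDKN2B-AS1, LINC01239, LOC124902130, LOC107987054, LOC105375990, LOC124902131 and LOC124902132 and the pseudogenes UBA52P6 and CLIC4P1.

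This was the longest of the 2737 stretches without a KYSE510 peak on 9p. The next longest was 433 kb on the whole arm and 260 kb up to 38 Mb, and the median was 7.33 kb. In single libraries the stretch measured 1289, 1287 and 1543 kb in the controls and 1288, 1290 and 1434 kb after silencing, and in each of the 6 it was the longest on 9p. The start common to all 6 is set by a peak of Pileup 3 in KYSE510 control 1. In control 3 the stretch began at chr9:21949429. In control 2 and the silenced libraries it began within the MTAP span, at chr9:21919699 to chr9:21919940. The last peak before the stretch had a Pileup of 2 to 4 in all 6 libraries, as did the first peak after it. It kept its first rank when only peaks of Pileup 3 or more were counted (1242 kb) and at an FDR of at most 1e-05 (1608 kb), although the next stretch then measured 1264 kb.

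KYSE150 had no such stretch. The longest that touched the window measured 15.7, 16.2 and 17.5 kb in the controls and 19.0, 17.8 and 25.1 kb after silencing, and ranked 170 to 475 on 9p. These lengths rest on the peaks of Pileup 1 and 2, and the longest stretch inside the window was 53.2 to 106.2 kb in KYSE150 libraries at a Pileup of 3 or more. Over the interval that was empty in KYSE510, KYSE150 had 209, 203 and 202 control and 167, 209 and 180 silenced peaks, of which 17 to 24 had a Pileup of 3 or more. These numbers are ordinary for 9p. Among 3428 windows of the same length at steps of 10 kb up to 38 Mb, none of them overlapping this interval, 23.4% to 45.2% held no more KYSE150 peaks. In KYSE510 the same windows held a median of 31 to 42 peaks and the emptiest of them held 3 to 9, depending on the library.

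**Figure D3:**
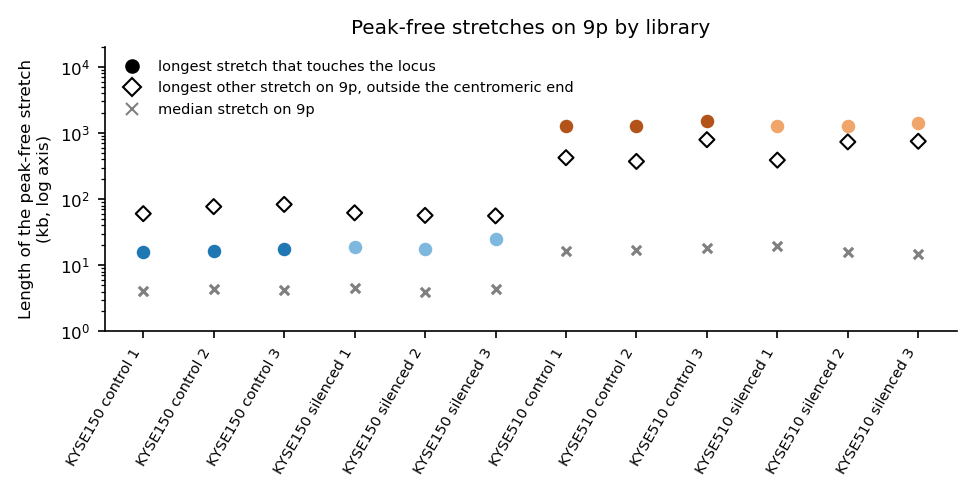
Length in kb (log axis) of the longest peak-free stretch that touches the locus in each of the 12 libraries (filled points), with the longest other stretch on 9p up to 38 Mb (diamonds) and the median stretch on 9p (crosses). The 6 KYSE510 libraries lie at 1287 to 1543 kb, above every other stretch of their arm, and the 6 KYSE150 libraries at 15.7 to 25.1 kb, below the longest other stretch.

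**Figure D4:**
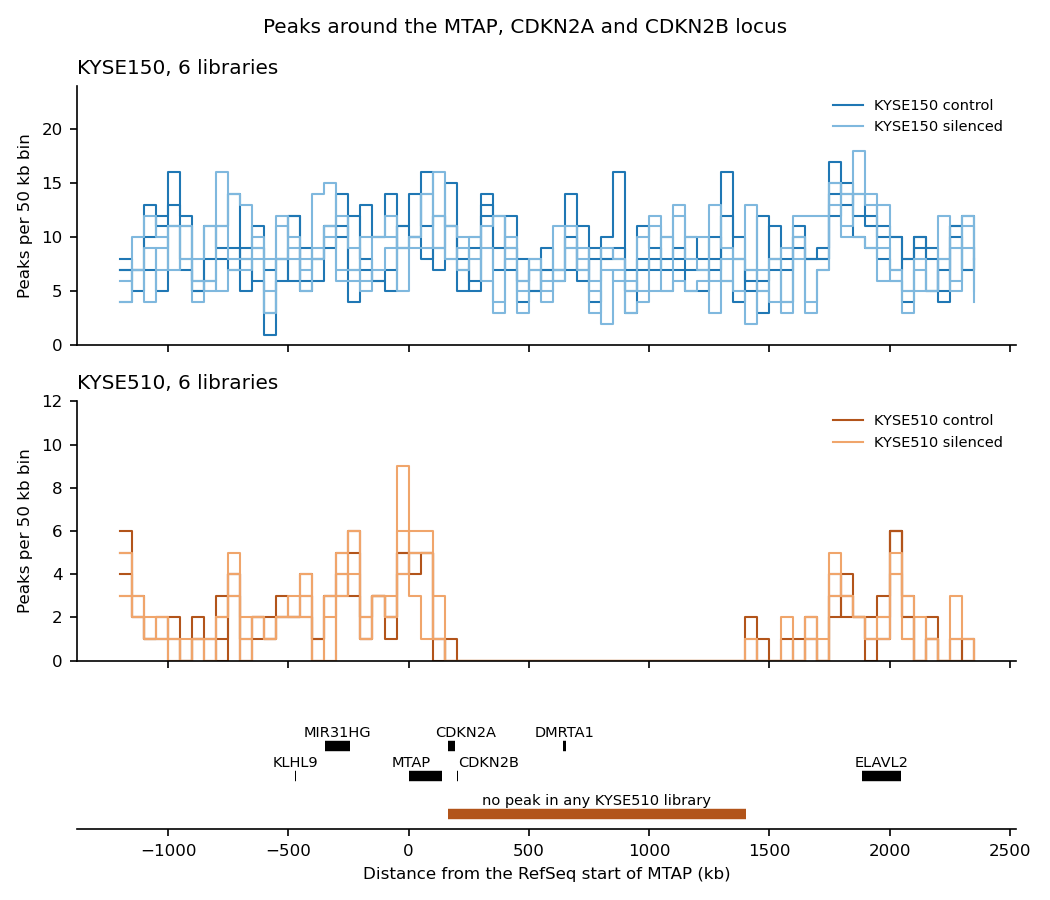
Number of peaks per 50 kb bin against distance from the RefSeq start of MTAP in kb, 1 line per library, with the scale of the vertical axis set for each cell line; bars below mark genes and the 1242 kb without a KYSE510 peak. KYSE150 counts continue through the interval in which KYSE510 counts are 0, and KYSE510 peaks resume before ELAVL2.

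KYSE150 had 10 regions inside this interval that were called in all 6 of its libraries at a Pileup of 3 or more, and by the choice of the interval none had a KYSE510 peak. Of such KYSE150 regions on the rest of 9p, 247 of 258 (95.7%) had a peak in at least 1 KYSE510 library, and of those within 5 Mb to each side 42 of 45 (93.3%) had one. Across the autosomes the share was 97.3% (25716 of 26424). The 3 such regions in the window before the interval all had KYSE510 peaks. The 10 regions include the promoters of CDKN2B-AS1 and CDKN2B. The tallest of the others, at chr9:22103126-22103690 within CDKN2B-AS1 and at chr9:22256800-22257643, had Pileups of 8 to 24 and 9 to 24 in KYSE150.

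At the starts of the genes the same boundary appeared. Each value is the highest Pileup within 1 kb of a RefSeq start, with 0 where no peak was listed. At the MTAP start KYSE150 had Pileups of 7, 7 and 10 in the controls and 5, 5 and 8 after silencing. KYSE510 had 11, 13 and 18 in the controls and 12, 11 and 16 after silencing. All 12 libraries had the peak, and it covered the whole printed MTAP window in each KYSE510 library. Among the starts of its own library, MTAP stood at a mean percentile of 67.2 ± 2.57 and 65.9 ± 11.2 in KYSE150 controls and silenced cells, and 73.2 ± 12.8 and 71.8 ± 4.96 in KYSE510 (SD, n = 3 each).

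The region shared by the upstream CDKN2A start and CDKN2B-AS1 had Pileups of 20, 15 and 13 in KYSE150 controls and 15, 14 and 10 in silenced KYSE150 cells. All 6 KYSE510 libraries were at 0. In each KYSE150 library its peak covered all 300 printed bases at CDKN2B-AS1. The RefSeq window around the upstream CDKN2A start itself was touched in 1 of the 6, by 224 bases of a separate peak of Pileup 5 in KYSE150 silenced 1. The peaks of the shared region thus covered the start window of the antisense RNA and not that of p14ARF, which lies within 1 kb. This overlap does not assign the region to either gene.

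CDKN2B had Pileups of 20, 9 and 18 in KYSE150 controls and 15, 13 and 8 after silencing, and 0 in all 6 KYSE510 libraries. The peak covered 261 to 300 bases of the printed CDKN2B window. The start of p16INK4a differed from both. It had Pileups of 1, 0 and 0 in KYSE150 controls and 0, 3 and 0 after silencing, and 0 in all KYSE510 libraries. None of these peaks touched the 300 printed bases, so no library of either line had a peak over the p16INK4a start window. Of the 8627 starts with at least as many CpG in their window, 64.5% had a peak in all 6 KYSE150 libraries and 14.2% in at most 2, as this start did.

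**Figure D5:**
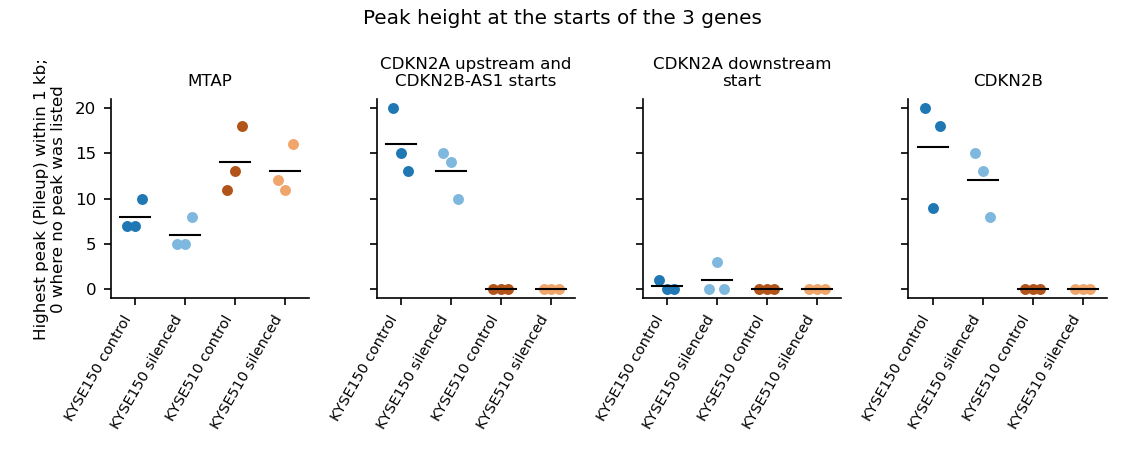
Highest Pileup within 1 kb of 4 RefSeq starts, with 0 where no peak was listed; points are libraries and lines the mean of 3. MTAP had a peak in all 12 libraries, the starts of CDKN2B-AS1 with upstream CDKN2A and of CDKN2B only in KYSE150 among these 2 lines, and the downstream CDKN2A start had peaks of 1 and 3 in 2 KYSE150 libraries.

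The lines were compared with limma at 18007 protein-coding starts with a peak in at least 3 of the 12 libraries, on normal scores of the ranks of fold enrichment within each library. Of these, 18.5% were called at an adjusted p under 0.05, and 8.49% were called lower in KYSE510. MTAP did not pass (0.18 ± 0.15 score units higher in KYSE510, SE, n = 6 libraries each; limma adjusted p = 0.438). The difference, KYSE510 minus KYSE150, was -1.54 ± 0.12 score units at upstream CDKN2A and -1.74 ± 0.14 at CDKN2B (limma adjusted p = 1.37e-07 and 1.62e-07). These 2 starts entered the test through KYSE150 alone and had to differ, so the calls add nothing to the values above. The downstream CDKN2A start had too few peaks to be tested.

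Other regions over MTAP were open in both lines but not equally. The tallest on average lay in the MTAP span at chr9:21836376-21837096, with Pileups of 16, 13 and 14 in KYSE150 controls, 14, 16 and 10 in silenced KYSE150, 22, 28 and 16 in KYSE510 controls and 19, 19 and 31 in silenced KYSE510. A neighbour at chr9:21832020-21832479 had 7, 9 and 8, then 9, 0 and 7 in KYSE150, against 15, 12 and 14, then 21, 18 and 34 in KYSE510. Closer to the start, chr9:21812355-21813472 had 6, 16 and 17, then 10, 11 and 13 in KYSE150, against 5, 5 and 4, then 0, 4 and 6 in KYSE510. The relative heights of these MTAP regions thus differed between the lines, with the second higher and the third mostly lower in KYSE510. Heights in the 2 lines are not on a common depth scale, and single regions were not tested.

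A region before MTAP, at chr9:21782158-21782634, had 3, 6 and 9, then 4, 2 and 5 in KYSE510, and was listed in 2 KYSE150 control libraries at 1 and 2. Regions further along MTAP were low in both lines. At chr9:21883405-21884276 Pileups were 2 to 7 in KYSE150 and 0 to 7 in KYSE510, and at chr9:21919481-21919939 they were 1 to 4 and 0 to 4. The third region of the CDKN2 side that all KYSE150 libraries shared, chr9:22052342-22052965 within CDKN2B-AS1, had 7, 5 and 7, then 4, 5 and 4, with 0 in every KYSE510 library. In all, 211 merged regions were counted, 140 on the MTAP side and 71 on the CDKN2 side. All 6 KYSE150 libraries shared 5 and 3 of them, all 6 KYSE510 libraries 4 and 0, and all 12 libraries 2 and 0.

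No difference between silenced and control libraries at the locus passed its test in either line, and 3 against 3 libraries cannot go below an exact permutation p of 0.1. The relative density of the window was 1.17, 1.44 and 1.36 in KYSE150 controls and 1.24, 1.36 and 1.31 in silenced cells, and the groups overlapped (silenced minus control -0.019; two-sided exact permutation test, p = 0.8). In KYSE510 it was 1.70, 1.89 and 1.95 in controls and 1.44, 2.09 and 2.12 in silenced cells, with the controls inside the range of the silenced libraries (difference 0.0355; exact permutation test, p = 1). The effects in the 2 lines differed by 0.0545 (permutation test over all 400 relabellings within lines, p = 0.83). On the CDKN2 side the KYSE150 groups given above did not overlap with all peaks (difference -0.0561), but they did at a Pileup of 3 or more, where the difference was 0.156. No test is given here either, since the sides were chosen after the data were seen.

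Inside the window, the longest peak-free stretch in KYSE150 was 15.7, 16.2 and 16.3 kb in controls and 19.0, 17.8 and 25.1 kb in silenced cells. These groups did not overlap, at the smallest p that 3 against 3 libraries allow (difference 4.59 kb; exact permutation test, p = 0.1). The stretches lay at different places in the 6 libraries. The difference was 24.9 kb at a Pileup of at least 2, 28.7 kb at 3, where the groups overlapped, 41.0 kb at an FDR of at most 0.05 and 0.557 kb with a flank of 100 kb. In KYSE510, where it always ran to the end of the window, it was 94.1, 139.4 and 109.9 kb in controls and 139.4, 139.4 and 139.6 kb in silenced cells (difference 25.0 kb; exact permutation test, p = 0.2). At a Pileup of at least 3 the difference was 46.6 kb, with groups that did not overlap (exact permutation test, p = 0.1). Their nearest values were 139.408 kb in control 2 and 139.443 kb in silenced 2, so the groups were barely apart. The larger difference came from silenced 1 alone. Its stretch grew from 139.4 to 204.1 kb because the peak of Pileup 2 that bounded it was no longer counted. The 2 shorter control values come from the 2 single peaks of Pileup 3 between MTAP and CDKN2A.

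At the promoters limma called 0 of 16459 starts in KYSE150 (0%) and 0 of 13762 in KYSE510 (0%) between silenced and control cells, with 810 and 735 starts at an unadjusted p under 0.05. Both counts are near the share that a threshold of 0.05 passes where nothing differs. In KYSE150 the score changed by -0.02 ± 0.21 at MTAP, -0.06 ± 0.19 at upstream CDKN2A and -0.11 ± 0.23 at CDKN2B (SE, n = 3 against 3; limma adjusted p = 0.998, 0.987 and 0.959). In KYSE510 it changed by -0.07 ± 0.22 at MTAP (limma adjusted p = 0.992), and neither CDKN2A nor CDKN2B had a peak to test. The errors are wide against the changes, and a smaller effect of silencing was not detectable here.

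Of 35 genes along 9p21, the 3 members included, 29 had a RefSeq promoter entry (IFNW1, IFNA16, IFNA6, CDKN2A-DT, CAAP1 and LRRC19 had none). In KYSE510, 7 of the 29 had a promoter peak in all 6 libraries, 2 in some and 20 in none, and in KYSE150 12 had one in all 6, 14 in some and 3 in none. Of all single protein-coding starts, 50.7% had a peak in all 6 KYSE510 libraries and 47.4% in all 6 KYSE150 libraries. These shares are by start, while the counts are by gene and include the non-coding MIR31HG and CDKN2B-AS1. Shares for some or none are not given over all starts. Promoters with KYSE510 peaks lay on both sides of the interval, beside others without. On the telomeric side of MTAP, FOCAD had Pileups of 12 to 16 in KYSE150 and 14 to 30 in KYSE510. MLLT3, a transcription elongation factor gene, had 8 to 19 and 9 to 22, KLHL9 had 4 to 9 and 7 to 11, and MIR31HG, the host gene of a microRNA, had 6 to 15 and 0 to 13. On the other side of the empty interval PLAA and IFT74 shared a region with 9 to 16 and 11 to 16. The interferon genes and TEK had no KYSE510 peak at their starts and Pileups of at most 2 in KYSE150, and DMRTA1, inside the interval, had 1 KYSE150 peak of Pileup 1.

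Of the 12 genes of this list with a promoter peak in all 6 KYSE150 libraries, 4 had none in KYSE510 at any start in the table. Among the 10488 protein-coding starts with a peak in all 6 KYSE150 libraries the share was 1.28%, counted by start and not by gene. The 4 were CDKN2A, CDKN2B, CDKN2B-AS1 and TUSC1. CDKN2A and CDKN2B are members of the locus, and CDKN2B-AS1 shares its region with upstream CDKN2A. Only TUSC1 lies outside the long interval, so the count is no separate result about the neighbours. Of the 20 neighbour starts that limma tested between the lines, 4 were called lower in KYSE510 and 0 higher, beside 8.49% lower over all starts, and the median difference was -0.22 score units, beside -0.07 over all starts. The 4 were upstream CDKN2A, CDKN2B, TUSC1 and the most upstream start of ELAVL2, a neuronal RNA-binding protein gene. Each entered through KYSE150 alone, so the calls add nothing to the Pileups. TUSC1 had Pileups of 8 to 17 in KYSE150, and the ELAVL2 start at chr9:23826240 had 17 to 21. Both lay outside the long interval. The stretches without KYSE510 peaks around them measured 6.90 kb and 7.37 kb, close to the median for 9p, so a promoter without a KYSE510 peak also occurred where peaks continued nearby.

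In the list of cyclin D kinases, RB family, E2F and CDK inhibitor genes, 13 of 16 had a promoter entry (CCND1, CCND2 and CDKN1C had none). At any of their starts, 10 had a promoter peak in all 6 KYSE150 libraries and 11 in all 6 KYSE510 libraries. Of all single protein-coding starts, 47.4% and 50.7% had one. A gene with several starts can count through any of them, so the gene counts and these shares are unlike measures. RB1, the target of the kinases, had none in KYSE510 and Pileups of 1 and 2 in 2 KYSE150 libraries. Of the 17 starts of this list that limma tested, 1 was called higher in KYSE510 and 3 lower, a share near the 18.5% called over all starts, so the genes named next are descriptions of single starts. CDK6, which encodes a kinase that p16INK4a inhibits, was called lower at chr7:92833959 (a change of -0.49 ± 0.15 score units). Its start at chr7:92836573 was called higher by 0.72 ± 0.17 score units. That start had a peak in 4 KYSE510 libraries and in no KYSE150 library. It entered the test through KYSE510 alone, so its call adds nothing to these peaks. CDK4 and CDKN1B, which encodes p27, both changed by -0.46 ± 0.14 (limma adjusted p between 0.00597 and 0.0325 for these 4 starts).

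In the ARF pathway list the 5 genes reported here had peaks in all 12 libraries. Of all single protein-coding starts, 47.4% had a peak in all 6 KYSE150 libraries and 50.7% in all 6 KYSE510 libraries. These shares are by start, and the gene counts for this list and the next are unlike measures. MDM2, which p14ARF restrains, had Pileups of 6 to 11 in KYSE150 and 9 to 18 in KYSE510 and did not pass limma. Of the 12 starts tested in this list 1 was called higher and 2 lower, beside 18.5% over all starts. MDM4 was called higher in KYSE510 (0.49 ± 0.14 score units) and NPM1, which binds p14ARF in the nucleolus, lower (-0.50 ± 0.15, at 2 starts that share a peak). In the list of methionine salvage and its partners all 14 genes had an entry, with a promoter peak in all 6 libraries for 13 genes in KYSE150 and for 13 in KYSE510. Of its 19 tested starts 2 were called, both higher in KYSE510, which is no more than the 18.5% called over all starts. They were PRMT5, a methyltransferase inhibited by the substrate of MTAP, with 0.79 ± 0.22 score units (limma adjusted p = 0.0169), and SRM, spermidine synthase, with 0.66 ± 0.17 (limma adjusted p = 0.0143). PRMT5 had Pileups of 19 to 39 in KYSE150 and 55 to 95 in KYSE510. The median difference between the lines was 0.003 score units over the kinase and RB starts, 0.02 over the ARF starts and -0.04 over the salvage starts, beside -0.07 over all starts tested.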

How the data were processed

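ATAC-seq peak lists of 12 libraries were analysed, 3 in each of 4 groups given by the labels. Per the submitters' processing notes the tools were Trimmomatic 0.36, Bowtie2 2.2.6, Picard 2.8.2, MACS2 2.1.1 and bedtools 2.25.0, on GRCh38. Per the file headers, the authors deposited for each peak its position and length, a fold enrichment (a ratio), a p-value with an FDR, and the Pileup, a signal height in whole numbers. There was 1 list per library, and no read counts were used, so no counting interval is given. Within a group, at most 0.0646% of peaks were identical between libraries in position and Pileup.

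Peaks were assigned by midpoint. Relative density is peaks per kb in the window over peaks per kb on the rest of 9p (to 43 Mb). Peak-free stretches ran from peak to peak. Regions were merged over libraries at an overlap of at least 1 bp and given the highest Pileup of each library. Starts and promoter sequences are RefSeq's (GRCh38.p14), with peaks taken within 1 kb. Ranks of the largest fold enrichment at each start, with 0 for no peak, became normal scores within each library. They were tested with limma (lmFit, eBayes, Benjamini-Hochberg) across all starts with a peak in at least 3 of the libraries compared. Single values were compared by two-sided exact permutation tests. Both were tested on simulated data. Python 3.11.15, NumPy 2.4.6, pandas 2.3.3, R 4.3.3 and limma 3.58.1 were used. Members and gene lists were chosen with earlier results of these data known. Named regions were those called in all 6 libraries of a line, at most the 10 with the highest mean fold enrichment. In the gene lists, those past limma's threshold were named, at most 5 per list, and others (the neighbours along 9p21, RB1, MDM2 and the marker genes) were chosen after their values were seen. Alternatives were stricter peak thresholds, other windows and references, bases covered, other filters, a replicate block and leaving out each library. The division into 2 sides, with all peaks or those of Pileup 3 or more, was added after seeing the data.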

Additional observations from a re-analysis of the deposited data

How the results depend on the processing

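The whole-window difference in relative density between the lines (0.55, KYSE510 minus KYSE150) turned to -0.82 at a Pileup of at least 2, -1.85 at 3, -0.83 at an FDR of at most 0.05, -1.78 at 1e-05, -1.09 on the CDKN2 side, and, at a Pileup of at least 3, -0.200 on the MTAP side and -4.47 on the CDKN2 side. It missed the threshold over the gene spans alone (0.389) and in control libraries only (0.526, where the smallest exact permutation p is 0.1), and was 0.503 to 0.637 without any 1 library. Neither silencing difference passed in any setting. In KYSE150 it turned positive with a 100 kb flank (0.0446), on the MTAP side alone (0.00438) and on the CDKN2 side alone at a Pileup of at least 3 (0.156). Over the whole window it was -0.0967 to 0.0383 without 1 library. In KYSE510 it turned negative at a Pileup of at least 3 (-0.0235), an FDR of at most 1e-05 (-0.163), over gene spans alone (-0.187), by bases covered (-0.115) and on the CDKN2 side (-0.21, and -0.236 at a Pileup of at least 3), and was -0.0813 to 0.255 without 1 library. The cause was not tested. The stretch difference in KYSE150 (4.59 kb) ranged from 0.557 kb with a 100 kb flank to 41.0 kb at an FDR of at most 0.05, and was 2.37 to 5.99 kb without 1 library. In KYSE510 (25.0 kb) it ranged from 13.8 kb over the gene spans alone to 46.6 kb at a Pileup of at least 3, and was 14.8 to 37.5 kb without 1 library. The silenced promoter calls rose from 0 to 1 in each line with 500 bp to each side and to 6 in each with Pileup ranked, and stayed at 0 without any 1 library. Between the lines, 1949 of the starts with a peak in every library were called instead of 3328 (fewer starts tested), and 2664 to 3166 without 1 library. Replicate numbers did not pair the libraries (correlations of same-numbered deviations -0.0009 to 0.025). With the replicate block the whole-window difference stayed 0.553, and 0, 0 and 3254 starts were called. Depth is unknown, and peaks too low to be listed are not seen in KYSE510.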

Other observations

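Across the 22 autosomes, 874 stretches of at least 100 kb held no peak of any KYSE510 library. The 1242 kb from CDKN2A onward ranked 22 of these by length. By the number of regions that all 6 KYSE150 libraries called at a Pileup of 3 or more it ranked 1, with 10 regions. The next held 5 in 288 kb at chr19:56089567-56377576 and 2 in 215 kb at chr19:37078579-37293392, and the median stretch held 0. The comparison was chosen after the 9p21 stretch was known and is a description of these 2 lines.

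Of the 10488 protein-coding starts with a peak in all 6 KYSE150 libraries, 134 (1.28%) had none in any KYSE510 library. Upstream CDKN2A and CDKN2B are 2 of them, and TUSC1 and the upstream start of ELAVL2 on the same arm are others.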
